A study of Homo sapiens with 4 samples.

Results

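The data described here are the mRNA levels of 10 transcription regulators of the erythroid programme, GATA1, GATA2, KLF1, KLF3, NFE2, ZFPM1, BCL11A, MYB, GFI1B and IKZF1, in K562 cells before and after hemin. The genes were taken by symbol from the deposited expression tables and joined by gene ID to the counts of every library, which gave 10 of 61498 genes. K562 is an established human erythroleukaemia line, and hemin is an iron-containing porphyrin that drives it toward the erythroid state. The series holds 2 libraries of untreated cells and 2 libraries of cells kept in 50 µM hemin for 108 h. All were made from poly(A) RNA of the same line in the same medium, with hemin as the only named difference. No culture time is given for the untreated cells. The labels do not say that the libraries of a group came from separate cultures, so the p-values measure the spread between these libraries, which may be technical.

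These genes form the core network of red cell formation. GATA2 is the GATA factor of progenitors, and GATA1 takes over its sites as cells commit to the erythroid lineage, with ZFPM1 (FOG1) as its cofactor. KLF1 then activates globin and other late genes through CACCC boxes, and KLF3 represses through the same kind of box. NFE2 binds the globin locus control region as a heterodimer with a small MAF protein. MYB keeps progenitors dividing, GFI1B is a repressor that recruits the LSD1 complex, and BCL11A and IKZF1 (Ikaros) act in fetal globin silencing and in lymphoid and erythroid cells, respectively.

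Total expected counts, the authors' estimates of reads per gene, were 7455447 to 8241534 per library, with 12.8% to 13.6% on mitochondrial genes. A count of 0 allows up to 3 counts, which is 0.364 to 0.402 CPM (normalized counts scaled to a library of fixed size). Of the 172 symbols in all lists used here, 172 were found. Replicates differed by more than counting noise: over genes the chi-square averaged 1.83 between untreated replicates and 2.24 between hemin-treated replicates. The RNA is of a whole culture, so fewer cells expressing a gene and less RNA per cell cannot be told apart. Among the markers of the line, HBE1 (embryonic epsilon-globin) stood at 2228 and 2286 TPM in untreated cells (TPM are the authors' transcript levels, scaled by length and library). Some markers of other blood lineages were present at levels like those of the factors, with 31.5 to 55.9 TPM for the megakaryocytic GP1BB, 32.5 to 34.9 TPM for the myeloid CEBPB and 23.7 to 24.8 TPM for the lymphoid TCF7 over the 4 libraries. The megakaryocytic factors FLI1 and ETS1, the granulocytic enzymes MPO and ELANE and the lymphoid genes PAX5 and CD3E had no count in any library.

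The promoters of 3 of the genes are shown because GATA factors and KLF1 are known to act on one another's genes, through GATA words and CACCC boxes. RefSeq promoter entries on GRCh38.p14 matched 8 of the 10 genes, and there was no entry for NFE2 and KLF3. In each sequence, written 5′ to 3′ on the strand of the gene and ending just before the annotated exons, capitals mark a GATA word (GATAA or GATAG, with an A or a T just before it) or a CACCC word (CCACCC), on either strand. The KLF1 promoter spans chr19:12887202-12887451 on the minus strand, the GATA1 promoter chrX:48786340-48786539 on the plus strand and the MYB promoter chr6:135181058-135181307 on the plus strand.
KLF1: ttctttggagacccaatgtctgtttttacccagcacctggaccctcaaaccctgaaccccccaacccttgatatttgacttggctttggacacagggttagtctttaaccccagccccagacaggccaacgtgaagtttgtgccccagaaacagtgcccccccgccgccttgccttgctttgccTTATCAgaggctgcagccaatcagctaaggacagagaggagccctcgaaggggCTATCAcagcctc
GATA1: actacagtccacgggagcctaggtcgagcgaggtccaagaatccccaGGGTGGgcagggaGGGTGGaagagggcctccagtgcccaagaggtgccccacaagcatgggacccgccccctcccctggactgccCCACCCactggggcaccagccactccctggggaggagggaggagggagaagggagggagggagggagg
MYB: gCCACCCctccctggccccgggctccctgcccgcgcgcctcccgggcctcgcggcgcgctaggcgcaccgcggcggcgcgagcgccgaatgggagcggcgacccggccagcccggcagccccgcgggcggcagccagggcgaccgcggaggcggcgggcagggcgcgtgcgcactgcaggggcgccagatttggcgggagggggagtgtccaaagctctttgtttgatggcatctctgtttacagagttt
The KLF1 sequence held 2 GATA words, both on the opposite strand, and no CACCC word. The GATA1 sequence held 3 CACCC words and the MYB sequence 1, and neither held a GATA word. The words were counted over the 250 bases before the RefSeq start of each entry. These windows included 50 annotated exon bases for GATA1, 95 for GFI1B and 38 for IKZF1. The windows of BCL11A (chr2:60528536-60528785), GFI1B and IKZF1 lay inside the annotated gene, not before it. Over the windows of all matched entries, the GATA word was in 1 of 8 (KLF1) and in 22.9% of all 27305 promoters. The CACCC word was in 4 of 8 (GATA1, GATA2, BCL11A and MYB) and in 30.4% of all. The NFE2 word TGAGTCA was in 0 of 8 and in 4.16% of all, and a MYB word (AACTG or AACGG, with a C or a T just before it) was in 1 of 8, BCL11A with 3 matches, and in 21.3% of all. A match is a description of these letters, not of a bound site.

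Of the 10 genes, 9 passed the filter on low counts and 1, BCL11A, did not. By edgeR's quasi-likelihood test with adjustment over all 14458 genes tested, 1 of the 9 was higher after hemin (MYB) and 1 was lower (NFE2). The same test called 7.00% of all genes tested higher and 7.14% lower. The CPM of the groups did not overlap for 4 of the 9 genes, against 57.3% of all genes tested. MYB, KLF1 and IKZF1 lay above and NFE2 below their untreated values (28.1% and 29.3% of all genes tested, respectively), and for the other 5 the libraries overlapped. The median log2 fold change was 0.04 over the 9 genes and -0.005 over all genes tested. The summed level of all 10 genes was 515 to 531 TPM in untreated and 542 to 547 TPM in hemin-treated cells. MYB had the largest rise in mean TPM within this sum, from 88.2 to 129. Means also rose for GATA1, KLF1 and ZFPM1, and were lower after hemin for GATA2, NFE2, GFI1B, IKZF1, KLF3 and BCL11A.

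**Figure D1:**
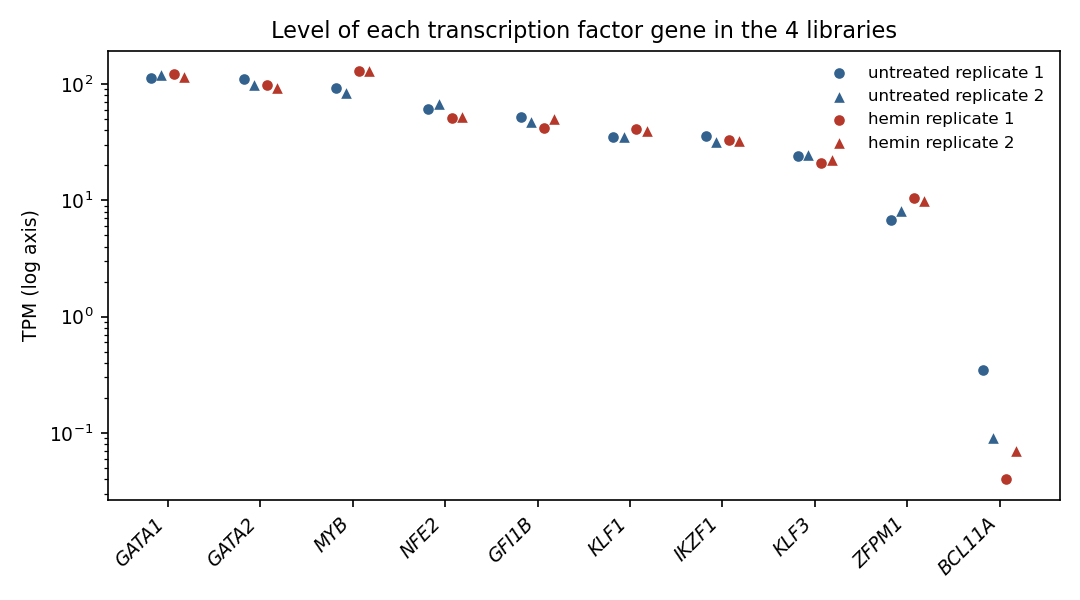
Level of each of the 10 genes in TPM on a log axis, with 1 point per library, circles for replicate 1 and triangles for replicate 2, blue for untreated and red for hemin-treated. The levels run from over 100 TPM for GATA1 to under 1 TPM for BCL11A, and MYB passes GATA1 after hemin.

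The levels, per transcript length in TPM, fell in a steep order. In untreated cells it was GATA1 (117), GATA2 (104), MYB (88.2), NFE2 (64.3), GFI1B (49.5), KLF1 (35.2), IKZF1 (33.7), KLF3 (24.4), ZFPM1 (7.42) and BCL11A (0.22), as means of 2 libraries. KLF1 and IKZF1 were the one pair of neighbours whose ranges overlapped. After hemin MYB (129) stood first, ahead of GATA1 (118) and GATA2 (95.8), and the remaining genes kept their order, from NFE2 (51.4) through GFI1B (45.8), KLF1 (40.5), IKZF1 (32.6), KLF3 (21.7) and ZFPM1 (10.2) to BCL11A (0.055). With 2 libraries a group, an exact two-sided permutation test of a single value cannot go below p = 0.333.

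The largest increase among the tested factors was in MYB, the progenitor factor. MYB (ENSG00000118513, chr6:135181308-135219173, plus strand of GRCh38) had 1176 and 1056 counts in the untreated libraries and 1565 and 1709 after hemin, or 93.3 and 83.1 TPM against 129 and 128 TPM. The hemin-treated libraries lay close together, above both untreated ones, with no overlap. On the CPM scale the values were 149 and 141 against 211 and 212. The fold change of 1.46 (95% interval 1.36 to 1.57) corresponded to a log2 fold change of 0.55 (SE 0.0461, edgeR adjusted p = 2.48e-04). MYB stayed past the threshold without any one of the 4 libraries, with a log2 fold change of 0.51 to 0.58 and an edgeR adjusted p of at most 0.00336. By limma on log2(TPM), whose calls over all genes were few, its adjusted p was 0.0643 to 0.303. The exons of MYB share 103 bases with the antisense gene MYB-AS1, which had 11 to 15 counts per library.

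**Figure D2:**
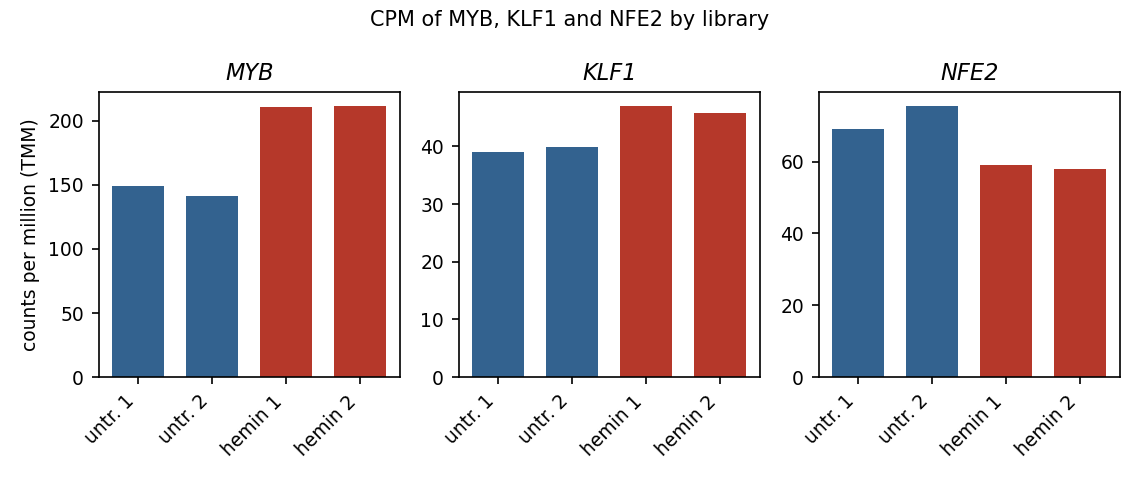
Normalized CPM of MYB, KLF1 and NFE2 in each library, with bars that start at 0, blue for untreated and red for hemin-treated (untr. is untreated, and 1 and 2 are replicates). For MYB and KLF1 both hemin-treated bars exceed both untreated ones, and for NFE2 both are lower.

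NFE2 was the one factor called lower. NFE2 (ENSG00000123405, chr12:54292111-54301015, minus strand) encodes the p45 subunit of the NF-E2 dimer. It had 547 and 566 counts in untreated cells and 438 and 467 after hemin, or 61.1 and 67.4 TPM against 51.1 and 51.7 TPM. Both hemin-treated libraries lay below both untreated ones. The log2 fold change was -0.31 (SE 0.0684, 95% interval -0.46 to -0.15, edgeR adjusted p = 0.0185), which is a level 1.24-fold higher in untreated cells. The call was the less firm of the pair. It was lost without hemin replicate 2 (-0.29, edgeR adjusted p = 0.054) and without untreated replicate 2 (-0.24, edgeR adjusted p = 0.106), and DESeq2 gave an adjusted p of 0.067. The direction was the same under all 14 alternatives tried, from -0.37 to -0.24.

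The ratio of MYB to NFE2 in TPM, within each library, was 1.53 and 1.23 in untreated cells and 2.53 and 2.48 after hemin. Its mean went from 1.38 ± 0.208 to 2.50 ± 0.0330 (SD, n = 2). MYB and NFE2 were each separated in TPM, in opposite directions, so their ratio had to separate as well and is no further result. The genes whose TPM over the 4 libraries came nearest to MYB, by Euclidean distance in log2(TPM + 0.1), were SYNCRIP (0.16), C19orf48 (0.20) and SLC20A1 (0.21). Nearest to NFE2 were SPPL2B (0.09), SESN2 (0.11) and NAT9 (0.12).

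**Figure D3:**
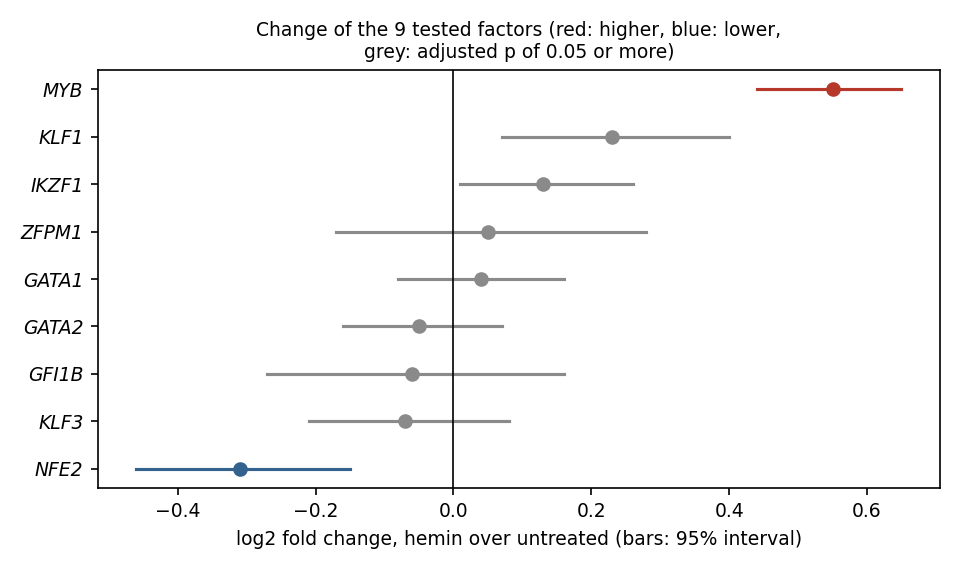
Log2 fold change of the 9 tested factors, hemin over untreated, from edgeR, with 95% intervals as bars, red for higher, blue for lower and grey for an adjusted p of 0.05 or more. The intervals of MYB and NFE2 lie clear of 0 on opposite sides, and those of GATA1, GATA2, GFI1B, KLF3 and ZFPM1 span 0. Those of KLF1 (0.07 to 0.40) and IKZF1 (0.01 to 0.26), drawn in grey, also lie above 0.

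Neither GATA factor passed the test. GATA1 (ENSG00000102145, chrX:48786540-48794311, plus strand), the master activator of the lineage, had 886 and 889 counts in untreated and 904 and 931 in hemin-treated cells, or 113 and 120 TPM against 121 and 114 TPM. The values were interleaved, with a log2 fold change of 0.04 (95% interval -0.08 to 0.16, edgeR adjusted p = 0.689), so that the interval reached no further than 0.16 in either direction. Without untreated replicate 1 the value was -0.0021. GATA2 (ENSG00000179348, chr3:128479427-128493201, minus strand), the progenitor GATA factor, had 1289 and 1155 counts against 1163 and 1214, or 110 and 97.5 TPM against 98.6 and 92.9 TPM. Here too the groups overlapped, with a log2 fold change of -0.05 (95% interval -0.16 to 0.07, edgeR adjusted p = 0.587). GATA2 shares 78 exonic bases with GATA2-AS1, which runs on the opposite strand and had 297 to 338 counts per library. Strand is not stated to have been used in the counting, so reads over the shared bases cannot be told apart. The ratio of GATA1 to GATA2 in TPM was 1.02 and 1.23 in untreated cells and 1.23 in both hemin-treated libraries. One untreated library thus lay below the other three, and the other untreated library matched the hemin-treated ones.

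KLF1, the activator of adult globin genes, was higher in both hemin-treated libraries but missed the threshold. KLF1 (ENSG00000105610, chr19:12884422-12887201, minus strand), whose promoter with its 2 GATA words is printed above, had 308 and 299 counts in untreated cells and 349 and 369 after hemin. In TPM this was 35.1 and 35.3 against 41.3 and 39.7, a difference wider than the spread within either group. The log2 fold change was 0.23 (SE 0.0740, 95% interval 0.07 to 0.40), with an unadjusted edgeR p of 0.0109 and an edgeR adjusted p of 0.0647. It was past the threshold in 0 of 14 alternatives, over which the value ran from 0.20 to 0.26 and the adjusted p from 0.0508 to 0.418. KLF3 (ENSG00000109787, chr4:38664197-38701517, plus strand), a repressor that KLF1 itself activates, had 670 and 623 counts against 565 and 676. Its TPM was 24.2 and 24.6 against 21.1 and 22.4, lower in both hemin-treated libraries, whereas its CPM of 84.7 and 83.2 against 76.2 and 83.8 overlapped. The log2 fold change was -0.07 (95% interval -0.21 to 0.08, edgeR adjusted p = 0.534), and without hemin replicate 1 it was 0.0042. The ratio of KLF1 to KLF3 in TPM was 1.45 and 1.44 in untreated cells and 1.96 and 1.78 after hemin. KLF1 and KLF3 were each separated in TPM, in opposite directions, so a ratio without overlap is no further result. KLF3 shares 265 exonic bases with KLF3-AS1, which had 15 to 19 counts per library.

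ZFPM1, the cofactor of GATA1, differed between the scales. ZFPM1 (ENSG00000179588, chr16:88453280-88537031, plus strand) had 172 and 170 counts in untreated cells and 167 and 190 after hemin. The counts overlapped between groups, with a log2 fold change of 0.05 (95% interval -0.17 to 0.28, edgeR adjusted p = 0.787). Its TPM was 6.82 and 8.02 in untreated cells and 10.4 and 9.93 after hemin, with no overlap. On the log2(TPM + 1) scale the difference was 0.41 and on the log2(TPM + 0.1) scale 0.46, with limma adjusted p of 0.276 and 0.271. The mean transcript length that the authors' program estimated for ZFPM1 was 4539 and 3965 bases in untreated cells and 3011 and 3272 bases after hemin. The groups did not overlap in this length, and the log2 ratio was -0.44. Groups that do not overlap in length occurred for 29.5% of all genes tested, and 2.85% were separated by at least as much. The annotation gives ZFPM1 5 transcripts of 497 to 5432 bases. Which of its transcripts were present was not tested.

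**Figure D4:**
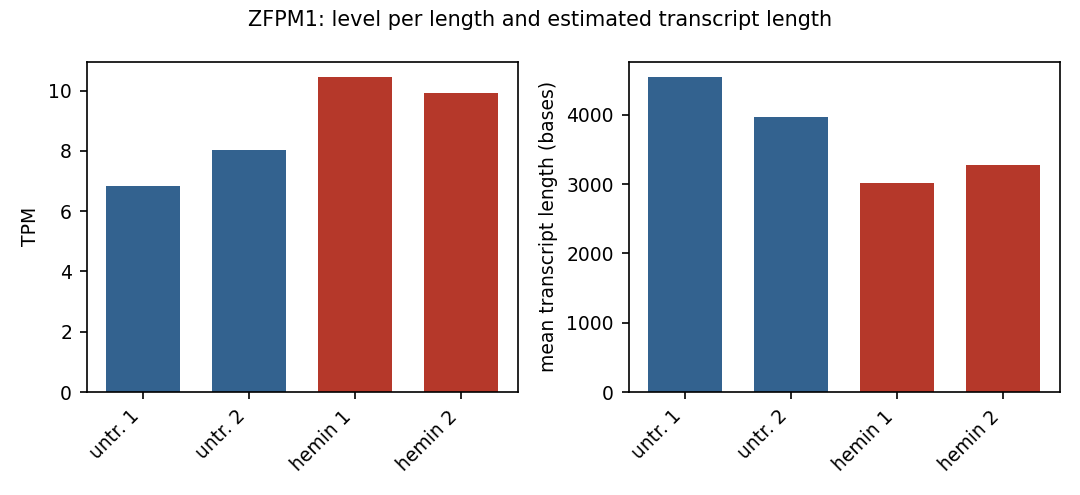
Level of ZFPM1 in TPM (left) and its estimated mean transcript length in bases (right) in each library, with bars from 0, blue for untreated and red for hemin-treated. The hemin-treated libraries are higher in TPM and shorter in length, while the counts behind them, 167 to 190 per library, overlap.

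GFI1B and IKZF1 did not pass the test. GFI1B (ENSG00000165702, chr9:132944000-132991687, plus strand), the erythroid and megakaryocytic repressor, had 504 and 452 counts in untreated cells and 394 and 532 after hemin, or 51.7 and 47.2 TPM against 41.7 and 50.0 TPM. The hemin-treated libraries lay furthest apart, on both sides of the lower untreated value, and the log2 fold change was -0.06 (95% interval -0.27 to 0.16, edgeR adjusted p = 0.757). It was 0.09 without hemin replicate 1. GFI1B shares 349 exonic bases with TSC1, which is read from the opposite strand and had 579 to 704 counts per library. IKZF1 (ENSG00000185811, chr7:50304068-50405101, plus strand) had 629 and 567 counts against 635 and 685, or 79.5 and 75.7 CPM against 85.6 and 84.9 CPM, higher in both hemin-treated libraries. The log2 fold change was 0.13 (95% interval 0.01 to 0.26), with an unadjusted edgeR p of 0.0431 and an edgeR adjusted p of 0.155. In TPM the groups overlapped, at 35.9 and 31.5 against 32.7 and 32.6, and limma on the log2(TPM + 1) scale gave -0.04 (adjusted p = 0.879), so the direction depends on the scale. The mean transcript length of IKZF1 was 3173 and 3372 bases in untreated cells and 3641 and 3593 bases after hemin.

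BCL11A, the silencer of fetal globin, was close to the limit of detection in both groups. BCL11A (ENSG00000119866, chr2:60450520-60554467, minus strand) had 2 counts in each untreated library and 1 and 2 counts after hemin, or 0.35 and 0.09 TPM against 0.04 and 0.07 TPM. No library exceeded the 3 counts that a count of 0 allows. The pooled counts of 4 and 3 gave a ratio of 0.726 with an exact 95% interval of 0.106 to 4.29, which covers counting error only. A change within this interval was not detectable at this depth.

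GATA1, TAL1, LMO2, LDB1 and E proteins bind DNA as one complex, and the genes of this complex and its close partners were read beside the factors. Of 15 such genes, all tested, 4 were higher and 0 lower by edgeR (7.00% and 7.14% of all genes tested), and the median log2 fold change was 0.14, against -0.005 over all genes tested. The 4 were RUNX1 (0.55, edgeR adjusted p = 0.001), a definitive haematopoietic factor; CBFA2T3 (0.40, edgeR adjusted p = 0.00206), the ETO2 corepressor; LMO2 (0.38, edgeR adjusted p = 0.00975), the bridge of the complex; and LYL1 (0.19, edgeR adjusted p = 0.0327), the relative of TAL1. RUNX1 went from 24.1 and 20.4 TPM to 29.7 and 27.5 TPM. LMO2 went from 57.2 and 63.5 TPM to 80.1 and 76.0 TPM, and CBFA2T3 from 39.1 and 31.9 TPM to 46.5 and 48.0 TPM. In none of these did the hemin-treated libraries overlap the untreated ones, in TPM or in CPM. By CPM, 28.1% of all genes tested lay above their untreated values without overlap. TAL1 itself had a log2 fold change of -0.06 (edgeR adjusted p = 0.581) and LDB1 of 0.00 (edgeR adjusted p = 0.988). The E-protein genes TCF3 (0.15), TCF12 (0.08) and TCF4 (0.10), the LDB1-binding genes SSBP2 (0.18), SSBP3 (0.15) and SSBP4 (0.14), and LMO4 (-0.08), CBFA2T2 (-0.09) and RUNX1T1 (-0.06) missed the threshold, the lowest edgeR adjusted p being 0.0681. The LYL1 call was lost when any one library was left out, with edgeR adjusted p of 0.0768 and 0.109 without hemin replicates 1 and 2 and 0.134 and 0.0894 without untreated replicates 1 and 2. It was also lost with a replicate block (edgeR adjusted p = 0.0517), with library size only as the scale (0.069) and by DESeq2 (0.132). The LMO2 call was lost without untreated replicate 1 (0.28, edgeR adjusted p = 0.0579).

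**Figure D5:**
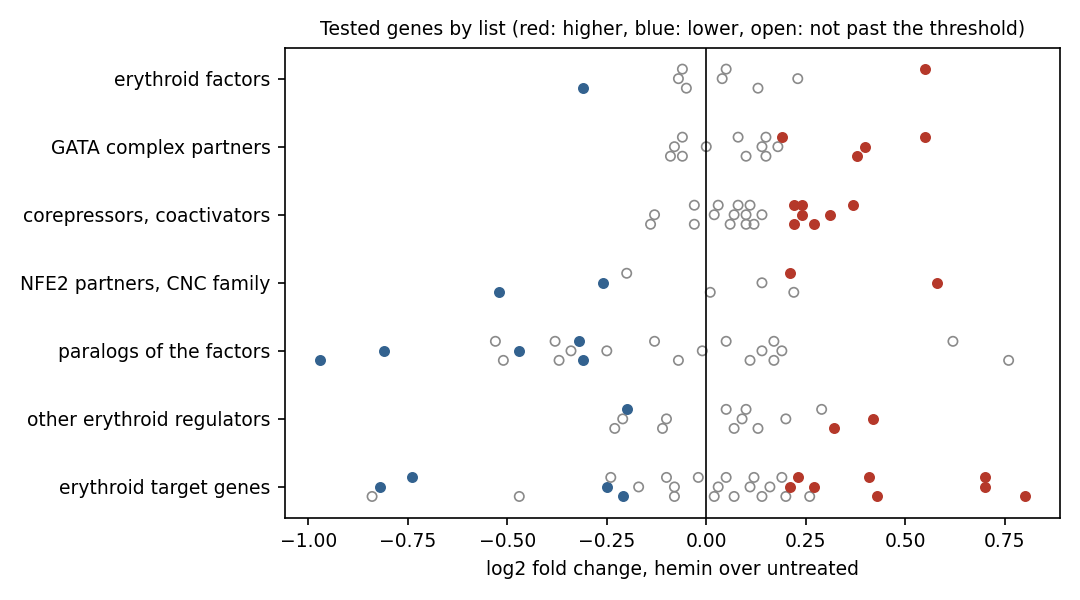
Log2 fold change, hemin over untreated, of every tested gene of 7 lists, 1 point per gene, red for higher and blue for lower past the threshold and open for the rest. The called genes of the GATA complex and of the corepressors and coactivators all lie on the right, those of the paralogs all on the left, and the erythroid target genes hold calls on both sides.

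The factors act through corepressors and coactivators such as the LSD1 complex, recruited by GFI1B, and the NuRD complex, recruited by ZFPM1 and BCL11A. Of 21 such genes, all tested, 7 were higher and 0 lower by edgeR (7.00% and 7.14% of all genes tested), with a median log2 fold change of 0.10. Among those called, the largest increases were in the histone acetyltransferase genes EP300 (0.37, edgeR adjusted p = 0.00333) and CREBBP (0.31, edgeR adjusted p = 0.0209), and MBD3 (0.27, edgeR adjusted p = 0.0219) of NuRD. EP300 went from 21.4 and 21.0 TPM to 21.4 and 28.7 TPM, so one hemin-treated library stood at the untreated level on the scale per length, while its CPM did not overlap. Without one library the CREBBP call was lost in 3 of 4 cases, with edgeR adjusted p of 0.0683 (hemin replicate 2), 0.0775 (untreated replicate 1) and 0.0894 (untreated replicate 2). The MBD3 call was lost in 3 of 4 as well, at 0.0743 (hemin replicate 1), 0.096 (untreated replicate 1) and 0.0713 (untreated replicate 2). By DESeq2 CREBBP (adjusted p = 0.102) and MBD3 (0.0868) missed the threshold as well. The 14 genes of this list that were not called ranged from -0.14 to 0.14, with edgeR adjusted p of 0.136 or more.

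NFE2 acts only with a small MAF partner and shares its sites with BACH1, BACH2 and the NFE2-like factors. Of 8 such genes, all tested, 2 were higher and 2 lower by edgeR (7.00% and 7.14% of all genes tested), with a median log2 fold change of 0.07. The small MAF genes had log2 fold changes of 0.22 (MAFK, edgeR adjusted p = 0.335), 0.01 (MAFG, 0.954) and -0.20 (MAFF, 0.46). The repressors BACH2 (0.58, edgeR adjusted p = 0.00547) and BACH1 (0.21, edgeR adjusted p = 0.0414) were higher. BACH1 went from 27.5 and 23.4 TPM to 29.5 and 28.2 TPM, and BACH2 from 6.39 and 3.68 TPM to 5.58 and 6.53 TPM, where the groups overlapped. The activators NFE2L3 (-0.52, edgeR adjusted p = 0.0269) and NFE2L1 (-0.26, edgeR adjusted p = 0.0128) were lower. NFE2L1 went from 63.5 and 54.0 TPM to 57.5 and 42.4 TPM, where the groups overlapped, while its CPM did not. By DESeq2 NFE2L3 missed the threshold (adjusted p = 0.127). NFE2L2, the NRF2 gene, had 0.14 (edgeR adjusted p = 0.271). The BACH1 call was lost when any one library was left out, with edgeR adjusted p of 0.127 and 0.0957 without hemin replicates 1 and 2 and 0.171 and 0.0904 without untreated replicates 1 and 2. It was also lost with a replicate block (edgeR adjusted p = 0.0619), with library size only as the scale (0.081) and by DESeq2 (0.176). NFE2L3 was lost without hemin replicate 2 (-0.41, edgeR adjusted p = 0.115) and without untreated replicate 2 (-0.42, edgeR adjusted p = 0.137). NFE2L1 was lost without hemin replicate 2 (edgeR adjusted p = 0.0525) and without untreated replicate 1 (edgeR adjusted p = 0.0744).

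The relatives of the 10 factors were compared with them because paralogs can bind the same sites. Of 26 paralogs, 22 were tested, 0 were higher and 5 were lower by edgeR (7.00% and 7.14% of all genes tested), with a median log2 fold change of -0.19. All 5 belonged to the KLF family, of which 12 of 14 paralogs were tested, while 0 of 4 IKZF paralogs and 0 of 2 tested GATA paralogs passed. KLF10, an early response gene of TGF-beta, fell most, from 24.3 and 25.2 TPM to 11.7 and 12.7 TPM, with a log2 fold change of -0.97 (edgeR adjusted p = 2.73e-04). KLF7 (-0.81, edgeR adjusted p = 0.0118) and KLF9 (-0.47, edgeR adjusted p = 0.0175), a regulator of erythroid progenitor growth, also fell. So did KLF12 (-0.32, edgeR adjusted p = 0.0332) and KLF13 (-0.31, edgeR adjusted p = 0.0205), which were not recomputed under the alternatives. KLF7 was lost without untreated replicate 1 (edgeR adjusted p = 0.0596) and untreated replicate 2 (0.0505), and KLF9 without hemin replicate 1 (0.0701), untreated replicate 1 (0.0734) and untreated replicate 2 (0.0772). By DESeq2 KLF7 (adjusted p = 0.0662) and KLF9 (0.0759) missed the threshold. The difference between the 5 called paralogs and KLF1 or KLF3 was not tested. The 17 paralogs not called ranged from -0.53 to 0.76.

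Among 14 other regulators of erythroid cells, all tested, 2 were higher and 1 lower by edgeR (7.00% and 7.14% of all genes tested), with a median of 0.08. LIN28B, which blocks let-7 and favours fetal globin, rose from 21.7 and 22.7 TPM to 29.1 and 27.7 TPM (log2 fold change 0.42, edgeR adjusted p = 0.00133). E2F4, a cell cycle factor required in fetal erythroid cells, had 0.32 (edgeR adjusted p = 0.0165). STAT5B, an effector of the erythropoietin receptor, had -0.20 (edgeR adjusted p = 0.0145). Its relative STAT5A went the other way but was not called (0.13, edgeR adjusted p = 0.0662). STAT5A had 203.4 and 203.2 CPM in untreated cells and 227.1 and 219.5 CPM after hemin. E2F4 was lost without hemin replicate 2 (edgeR adjusted p = 0.0918), untreated replicate 1 (0.083) and untreated replicate 2 (0.0609), and STAT5B without untreated replicate 2 (0.0798).

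The targets of the factors moved in both directions. Of 37 erythroid genes listed as targets of the network, 31 were tested, 8 were higher and 4 lower by edgeR (7.00% and 7.14% of all genes tested), with a median log2 fold change of 0.07. Among the genes called, the largest increases were in the alpha-globin cluster, HBA1 (0.80, edgeR adjusted p = 4.65e-05), HBA2 (0.70, edgeR adjusted p = 5.00e-04) and HBZ (0.70, edgeR adjusted p = 1.51e-04). HBA1 and HBA2 are near-identical copies, and the posterior SD of their counts reached 4.98% and 9.46%, so the split between them is uncertain. Among the genes called, the largest decreases were in CA2, carbonic anhydrase II (-0.82, edgeR adjusted p = 7.61e-04), DMTN of the membrane skeleton (-0.74, edgeR adjusted p = 0.00923) and ALAS2, the erythroid enzyme of haem synthesis (-0.25, edgeR adjusted p = 0.0252). DMTN was lost without untreated replicate 1 (edgeR adjusted p = 0.0627). ALAS2 was lost without hemin replicate 2 (edgeR adjusted p = 0.147), untreated replicate 1 (0.0894) and untreated replicate 2 (0.103). DESeq2 did not call ALAS2 (adjusted p = 0.0785). ALAS2 had 98.6 and 81.8 TPM in untreated cells and 82.3 and 72.7 TPM after hemin, where the groups overlapped, while its CPM did not. The adult beta-globin gene HBB stood at 0.26 to 0.68 TPM and was not tested, and AHSP and TRIM10 had no count in any library. Summed over the list, the level was 8418 to 8592 TPM in untreated and 9920 to 10438 TPM in hemin-treated cells. Highly expressed genes weigh most in this sum, so it does not describe the list as a whole. HBE1 alone went from 2228 and 2286 TPM to 2972 and 2902 TPM (log2 fold change 0.41, edgeR adjusted p = 4.45e-04). HBG1 (0.26, edgeR adjusted p = 0.0658) and HBG2 (0.19, edgeR adjusted p = 0.0727) missed the threshold, with unadjusted edgeR p of 0.0112 and 0.0132. Both were higher in both hemin-treated libraries by CPM. HBG1 had 302.4 and 342.9 CPM against 423.1 and 352.4 CPM after hemin, and HBG2 567.7 and 598.5 CPM against 708.3 and 619.3 CPM.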

How the data were processed

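The data are RNA-seq libraries of K562 cells, 2 untreated and 2 hemin-treated. The authors trimmed reads (Trimmomatic 0.39) and quantified each library with RSEM 1.3.1 and STAR 2.7.5c on Ensembl 106 (GRCh38). The expected counts the authors deposited are unnormalized read estimates for each gene, and the posterior mean counts and their posterior SD come from its sampling. The deposited TPM are scaled by effective length; the series tables and the library files differed by 0 at most. The deposited lengths are estimated means over transcripts, and the kit is not stated to mark strand.

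Expected counts were rounded, filtered by filterByExpr, which kept 14458 of 61498 genes, and normalized by TMM. They were tested with edgeR 4.0.16 (quasi-likelihood, condition as the only term) in R 4.3.3, with Benjamini-Hochberg adjustment over all genes tested and a threshold of 0.05. Intervals are 95% and cover counting error only where they come from pooled counts. Alternatives used RLE factors, library size only, DESeq2 1.42.0, no count filter or a minimum of 20 counts throughout 1 group, a replicate block, posterior mean counts, each library left out, and limma 3.58.1 (trended) on log2(TPM + 1), with and without a filter, and log2(TPM + 0.1). The test was checked on simulated counts. Coordinates are from GENCODE 44, promoters from RefSeq.

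The factors and the lists of complex partners, corepressors and coactivators, NFE2 partners, paralogs, other regulators, target genes, progenitor genes and markers of other lineages were chosen with earlier results of these data known. Named were all 10 factors, all genes of the complex and NFE2 partner lists, of each other list the 3 called genes with the largest rise and fall, and the 3 genes nearest in pattern to each called factor; other genes were named as list members, neighbours or lineage markers after their values were seen.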

Additional observations from a re-analysis of the deposited data

How the results depend on the processing

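Results were recomputed under 14 alternatives. The number of genes called higher and lower, 1012 and 1033, was 597 and 483 by DESeq2, 15 and 34 by limma on log2(TPM + 0.1), 14 and 33 on log2(TPM + 1), and 0 and 0 on log2(TPM + 1) with no filter, where 1359 and 2069 genes had an unadjusted p under 0.05. It was 469 to 934 higher and 512 to 884 lower when 1 library was left out, the lowest without untreated replicate 1. A lone library was then taken to vary as the other group does. With library size only as the scale, 729 were higher and 1358 lower, and the median of all genes shifted by -0.039. Of the erythroid factors, 1 was called higher (MYB) and 1 lower (NFE2). The first count was 0 in the 3 limma fits. The second was 0 by DESeq2, in the 3 limma fits, without hemin replicate 2 and without untreated replicate 2, so it ran from 0 to 1 when 1 library was left out; the count of factors called higher was 1 in each of those. The cause of these changes was not tested.

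Directions turned in GATA1 (-0.0021 without untreated replicate 1, within -0.0021 to 0.08 over the 4 libraries left out), KLF3 (0.0042 without hemin replicate 1, within -0.14 to 0.0042), GFI1B (0.09 without hemin replicate 1, within -0.22 to 0.09), IKZF1 (-0.04 in the 3 limma fits) and THBS1 (0.31 by limma on log2(TPM + 0.1), 0.28 on log2(TPM + 1) with and without the filter). Over 36 genes, 367 of the recomputed values kept direction and side of the threshold, 128 lost the call and 9 changed sign.

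Replicate numbers are shared between the groups, but the libraries with number 1 did not deviate together (r = 0.027 across 10655 genes, which are not independent replicates), so the numbers are not taken to pair them. With a replicate block 855 genes were higher and 886 lower, MYB had an edgeR adjusted p of 0.00101 and NFE2 of 0.0273, and 1 factor was called in each direction. Of the 36 genes recomputed, LYL1 (edgeR adjusted p = 0.0517) and BACH1 (0.0619) lost their calls with the block, and the rest kept their side of the threshold.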

Other observations

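The genes of other blood programmes were read beside the factors. Of 11 progenitor genes, 5 were tested, 2 were higher and 0 lower by edgeR (7.00% and 7.14% of all genes tested), with a median log2 fold change of 0.19. MYC, the proliferation factor, rose from 239 and 234 TPM to 299 and 289 TPM (0.38, edgeR adjusted p = 6.67e-04), and HHEX, a homeobox gene of progenitors, from 107 and 103 TPM to 119 and 124 TPM (0.25, edgeR adjusted p = 0.0121). The HHEX call was lost without hemin replicate 2 (edgeR adjusted p = 0.0582) and without untreated replicate 1 (0.0691). CD34 and HOXA9 had no count in any library.

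Of 11 megakaryocyte markers, 4 were tested, with GP1BB higher (0.64, edgeR adjusted p = 0.00783) and THBS1 lower (-0.45, edgeR adjusted p = 0.00903), beside the same shares of all genes tested, and a median of -0.31. The posterior SD of the GP1BB count reached 14.7%. THBS1 had 9.79 and 7.38 TPM in untreated cells and 11.9 and 9.44 TPM after hemin, where the groups overlapped. DESeq2 did not call THBS1 (adjusted p = 0.0541). FLI1, ETS1, PF4, PPBP, GP9 and VWF had no count in any library. The summed level of the list was 46.0 to 54.1 TPM in untreated and 68.1 to 69.2 TPM in hemin-treated cells. GP1BB made up most of this sum, with a mean of 35.5 TPM in untreated and 53.9 TPM in hemin-treated cells. ITGA2B had -1.15 (edgeR adjusted p = 0.123) and GP1BA -0.16 (edgeR adjusted p = 0.825). ITGB3, with 9 and 10 counts in untreated cells and 1 and 3 after hemin, was not tested. Of 11 granulocyte and monocyte markers 2 were tested and of 8 lymphoid markers 1, and 0 passed by edgeR. SPI1, the antagonist of GATA1, had 6.76 and 6.99 TPM against 6.78 and 8.61 TPM (0.13, edgeR adjusted p = 0.755), CEBPB had -0.00 (edgeR adjusted p = 0.998), and the lymphoid gene TCF7 had -0.06 (edgeR adjusted p = 0.65).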
